A study of Mus musculus with 10 samples.

Results

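Glycolysis splits glucose into pyruvate in the cytosol, and in cultured fibroblasts much of that pyruvate is reduced to lactate and exported. Under low oxygen the subunit encoded by Hif1a is no longer hydroxylated and degraded, pairs with ARNT, and drives transcription of many glycolytic genes together with genes of oxygen sensing, mitophagy, collagen hydroxylation and blood vessel growth. The 39 genes listed here cover that programme: the glucose transporter Slc2a1, the enzymes from hexokinase to lactate dehydrogenase, the lactate exporters, kinases that set the flux into and out of glycolysis, Hif1a, and genes known to respond to hypoxia-inducible factor (HIF). Members were taken by gene symbol, with the row of the highest mean where a symbol had several. Of the 39, 36 had a row of their own, among 14849 rows that name a gene. Eno2 appeared only in a row joined with Atn1 and Grcc10 (109 to 219 RPKM) and could not be given a value of its own, and Aldoc and Slc16a3 were not analysed here. All 36 met the filter on low values, which asked for 1 RPKM (a read number divided by the length of the transcript and by the size of the library) in at least 2 libraries.

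RNA was sequenced from 10 cultures of NIH3T3, an established line of mouse embryo fibroblasts, to ask how FOXP2, a forkhead transcription factor, and FOXP2-CPED1, which the series title calls an arrangement of FOXP2, alter gene expression. The control group held 1 library of parental cells and 1 of cells stably carrying the vector; the other groups were 4 clones stably overexpressing FOXP2 and 4 clones stably overexpressing FOXP2-CPED1. Each culture gave 1 library, and clones of 1 construct serve as its replicates. Whether a control is itself a clone is not stated in the labels, so the derivation of a clone and the construct it carries cannot be told apart. The sources used here do not give the oxygen, glucose or cell density at harvest. In bulk RNA, fewer cells expressing a gene and less RNA per cell cannot be told apart.

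The libraries were close in scale. Summed RPKM ran from 794682 to 944602, and depth relative to the parental cells ran from 0.913 to 1.32, with the absolute depth unknown. Pearson correlations between libraries were 0.931 to 0.98, and 0 pairs were identical. Mitochondrially encoded rows were listed at 0 in FOXP2 clones 2 and 4 and FOXP2-CPED1 clone 3, while the other 7 libraries had 33213 to 41130 RPKM there. Of 8 fibroblast markers, 7 had a row and reached 1 RPKM, with sums of 8957 to 9067 RPKM in the controls, 5917 to 8149 in FOXP2 clones and 6349 to 8898 in FOXP2-CPED1 clones. Among epithelial and endothelial markers only Cdh1 (0.584 to 2.37 RPKM) and Cdh5 (0.0182 to 0.536 RPKM) had a row. Blood and immune markers summed to 11.6 to 24.9 RPKM, most of it Cd14. The part of these differences in the results below was not tested. The mouse Foxp2 row ranged from 0.0785 to 0.0798 RPKM in the controls, 0.145 to 1.02 in FOXP2 clones and 0.0674 to 0.330 in FOXP2-CPED1 clones. Since the species of the introduced sequence is not stated, this row may miss it and does not check the labels.

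Promoters of 4 members are shown because HIF binds a short core, ACGTG or GCGTG, and because these genes stand for the patterns described below: both genes that fell, an enzyme that was higher in every clone, and a gene that varied widely between clones. Each line gives 250 bases before and 50 after the RefSeq start on GRCm38.p6, read along the gene's strand from 5′ to 3′. Capitals mark the core on either strand, where CACGT and CACGC are its complements. The windows are chr4:119108495-119108794 (plus strand) for Slc2a1, chr7:110627407-110627706 (plus) for Adm, chrX:106186850-106187149 (plus) for Pgk1 and chr7:138909457-138909756 (minus) for Bnip3.
Slc2a1: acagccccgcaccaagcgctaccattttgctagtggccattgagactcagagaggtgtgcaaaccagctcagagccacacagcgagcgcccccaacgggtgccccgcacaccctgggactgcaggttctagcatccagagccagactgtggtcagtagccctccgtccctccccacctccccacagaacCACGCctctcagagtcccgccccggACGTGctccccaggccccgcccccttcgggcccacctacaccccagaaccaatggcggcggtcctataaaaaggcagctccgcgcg
Adm: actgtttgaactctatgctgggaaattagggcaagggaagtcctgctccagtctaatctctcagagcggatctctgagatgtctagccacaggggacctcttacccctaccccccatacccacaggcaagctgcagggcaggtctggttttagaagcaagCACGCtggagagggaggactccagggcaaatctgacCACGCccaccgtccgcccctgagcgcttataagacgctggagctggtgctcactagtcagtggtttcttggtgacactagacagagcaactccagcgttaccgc
Pgk1: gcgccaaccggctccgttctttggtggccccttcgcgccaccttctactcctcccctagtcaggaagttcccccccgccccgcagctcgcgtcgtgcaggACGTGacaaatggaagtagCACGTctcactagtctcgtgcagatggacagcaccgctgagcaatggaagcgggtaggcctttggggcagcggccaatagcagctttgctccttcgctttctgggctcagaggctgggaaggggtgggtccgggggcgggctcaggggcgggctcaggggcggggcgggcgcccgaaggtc
Bnip3: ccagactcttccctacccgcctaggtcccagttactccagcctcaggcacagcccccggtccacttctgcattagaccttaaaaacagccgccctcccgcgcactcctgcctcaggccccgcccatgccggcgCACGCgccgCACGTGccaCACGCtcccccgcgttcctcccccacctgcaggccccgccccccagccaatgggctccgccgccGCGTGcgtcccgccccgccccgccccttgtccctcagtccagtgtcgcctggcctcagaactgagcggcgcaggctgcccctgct
The Slc2a1 window held 2 cores, the Adm window 2, the Pgk1 window 2 and the Bnip3 window 5. The stretch CACGTG in the Bnip3 window holds a core on each strand, and both were counted. Of the 39 listed genes, 37 had a promoter in the RefSeq table, and 34 of these (91.9%) held a core in at least 1 window, against 12628 of 27025 genes in the table (46.7%). Genes with several starts had several windows, and the number of starts was not matched. By window, 43 of 55 member promoters (78.2%) held a core, against 14380 of 32851 in the table (43.8%). The core contains a CG pair, and the 2 groups were not matched for base composition. A match is a description of the letters in the window. Both genes that fell and genes that did not pass the test carried it, as the 4 windows show.

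Slc2a1 and Adm were lower in all 8 clones than in either control, and they were the only members past the threshold. Slc2a1 encodes GLUT1, the main basal glucose transporter of fibroblasts. The parental and vector libraries held 106.0 and 105.5 RPKM. FOXP2 clones 1 to 4 held 48.5, 58.2, 60.3 and 53.2 RPKM, and FOXP2-CPED1 clones 1 to 4 held 51.03, 57.4, 44.7 and 56.1 RPKM. The groups of clones overlapped each other and neither reached the control, so that each clone kept between 42.3 and 57.0% of the control mean. Group means were 105.7 ± 0.409 RPKM (SD, n = 2) in the controls, 55.0 ± 5.26 (n = 4) in FOXP2 clones and 52.3 ± 5.76 (n = 4) in FOXP2-CPED1 clones.

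Adm encodes adrenomedullin, a secreted vasodilator peptide and a well-known HIF target. The parental cells had 114.1 RPKM and the vector cells 118.1. FOXP2 clones 1 to 4 had 28.3, 21.9, 37.2 and 22.9 RPKM, and FOXP2-CPED1 clones 1 to 4 had 29.4, 27.2, 27.8 and 34.2 RPKM. The highest clone, FOXP2 clone 3, held 32.0% of the control mean, and the lowest, FOXP2 clone 2, held 18.9%. Group means were 116.1 ± 2.81 RPKM (n = 2) in the controls, 27.6 ± 7.0 (n = 4) in FOXP2 clones and 29.6 ± 3.18 (n = 4) in FOXP2-CPED1 clones.

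The tests used limma on log2(RPKM + 1), with Benjamini-Hochberg adjustment over 12842 rows and 0.05 as the threshold. Slc2a1 fell with both constructs, with a log2 fold change of -0.93 with FOXP2 (SE 0.14, adjusted p = 0.0299) and -1.01 with FOXP2-CPED1 (SE 0.14, adjusted p = 0.0230). For Adm, which also fell with both, it was -2.07 with FOXP2 (SE 0.20, adjusted p = 0.00262) and -1.94 with FOXP2-CPED1 (SE 0.20, adjusted p = 0.00594). Both comparisons use the same 2 control libraries. Over all 8 clones it was -0.97 for Slc2a1 (SE 0.13, adjusted p = 0.0122) and -2.0 for Adm (SE 0.19, adjusted p = 0.00142). A two-sided exact permutation test gave p = 0.0667 for each gene and construct against the control, the smallest that 2 against 4 libraries allow. The same two-sided exact permutation test over all clones gave p = 0.0222 for each gene, again the smallest possible. Both genes were listed with their fall known, so these permutation p-values are no separate evidence for it. Of all rows tested, 6.38% lay below both controls in all 8 clones and 5.44% above. Without the parental or without the vector library neither gene passed by limma in any comparison with the control, while the log2 differences stayed between -1.01 and -0.93 for Slc2a1 and between -2.09 and -1.92 for Adm. The Slc2a1 call was also lost without FOXP2 clone 1, FOXP2 clone 4 or FOXP2-CPED1 clone 1 in the FOXP2 comparison, and without FOXP2-CPED1 clone 1, 2 or 3 in the other. With only the FOXP2 and control libraries in the fit, neither gene passed with FOXP2 (limma, adjusted p = 0.142 for Slc2a1 and 0.0538 for Adm). Without the 3 libraries with mitochondrial rows at 0, Slc2a1 passed with neither construct (adjusted p = 0.117 with FOXP2 and 0.0835 with FOXP2-CPED1), while Adm passed with both (0.0266 and 0.0152).

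**Figure D1:**
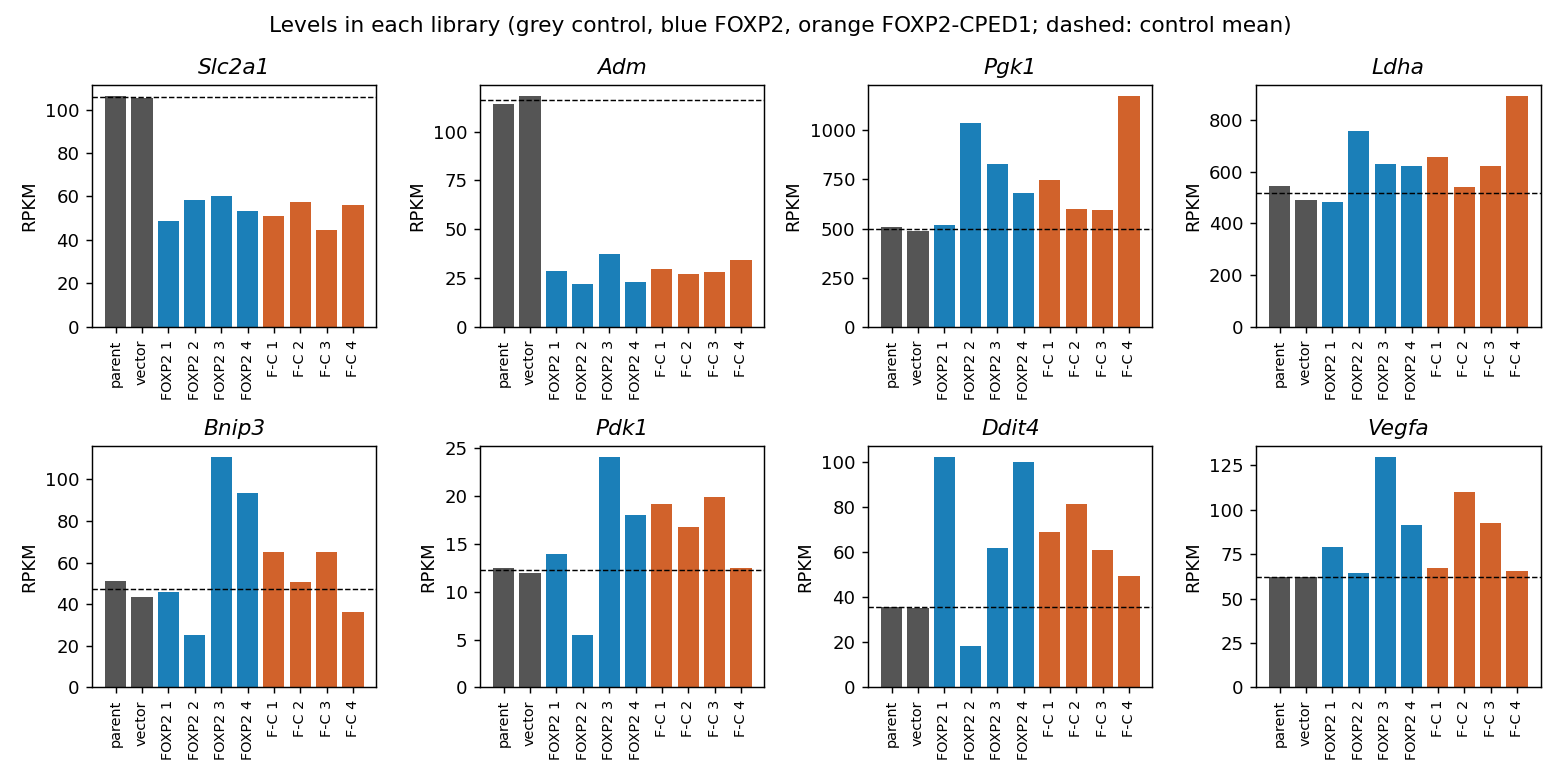
Levels (RPKM, linear axes from 0) of 8 members in each library, with controls in grey, FOXP2 clones in blue and FOXP2-CPED1 clones (F-C) in orange, and the control mean dashed. Slc2a1 and Adm lie below the control in all 8 clones, Pgk1 and Vegfa above both controls in all 8, and Bnip3, Pdk1 and Ddit4 range from below to above the control.

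Of the 36 members tested, 2 were lower and 0 higher past the threshold with FOXP2, where 56 of all rows tested (0.436%) passed, 51 (0.397%) lower and 5 (0.0389%) higher. The counts were the same with FOXP2-CPED1, where 45 rows (0.35%) passed, 42 (0.327%) lower and 3 (0.0234%) higher, and over all clones, where 69 (0.537%) passed, 64 (0.498%) lower and 5 (0.0389%) higher. The list was drawn up with these calls known, so its share is given without a reading. At an unadjusted p under 0.05 there were 4 members with FOXP2 (8.52% of all rows), 2 with FOXP2-CPED1 (7.28%) and 2 over all clones (9.10%). The median log2 fold change of the 36 members was 0.08 with FOXP2 and 0.07 with FOXP2-CPED1, beside 0.0162 and 0.00161 over all tested rows. Members above and below 0 numbered 23 and 13 with FOXP2, and 22 and 14 with FOXP2-CPED1. Of all tested rows, 52.3% lay above 0 with FOXP2 and 50.3% with FOXP2-CPED1.

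**Figure D2:**
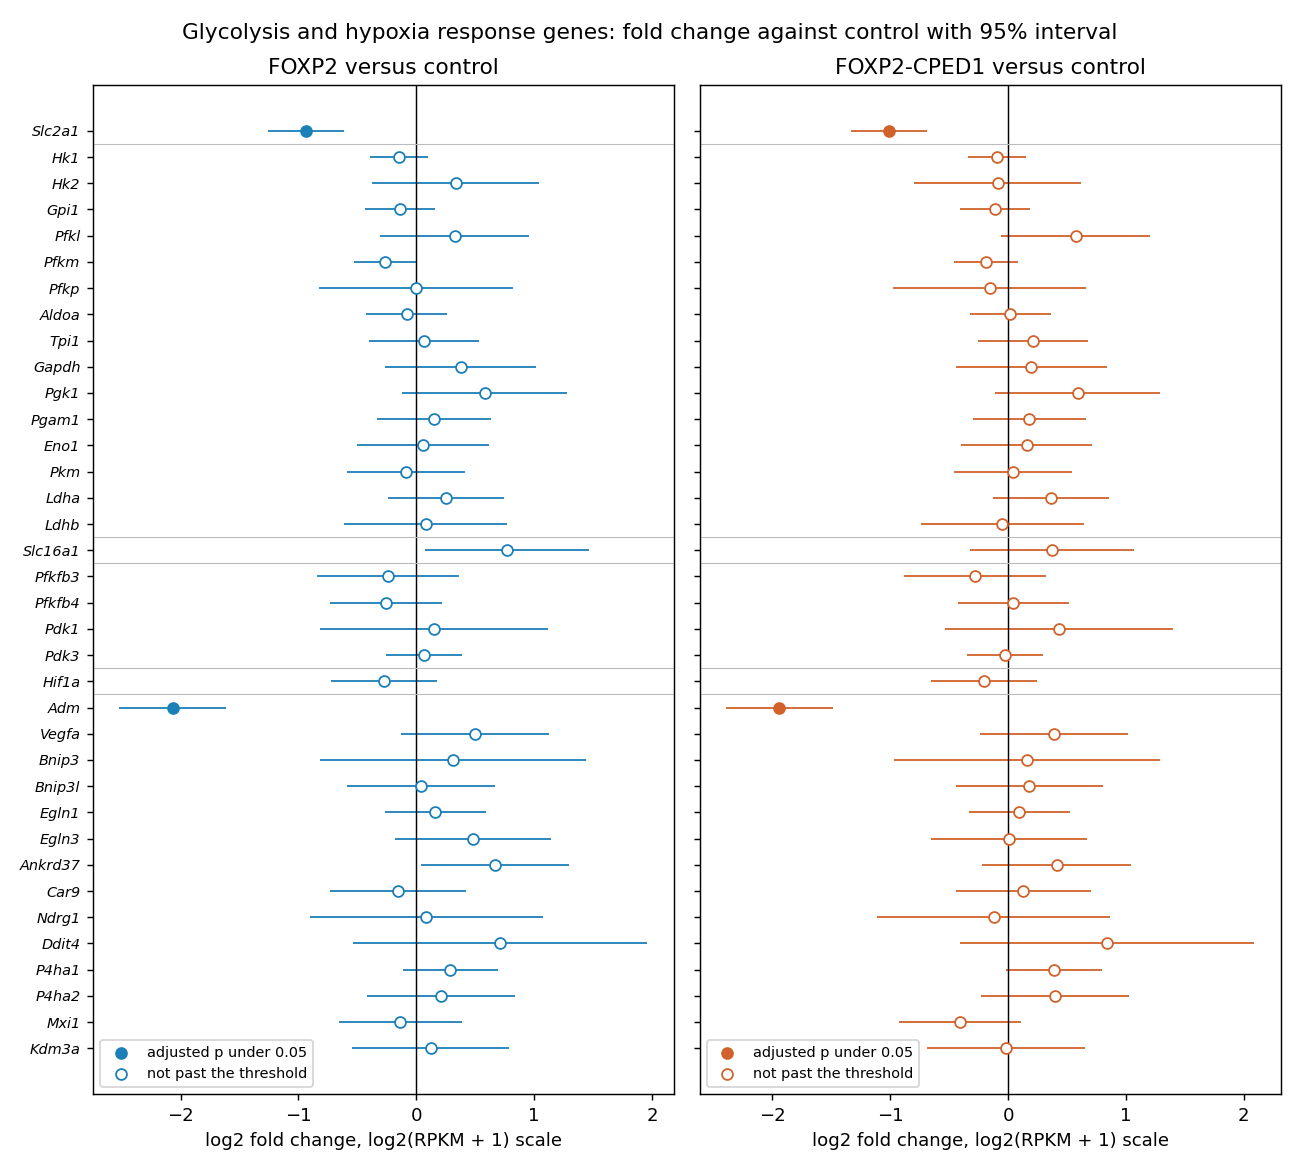
Log2 fold change against the control for each of the 36 members, on the log2(RPKM + 1) scale, with 95% intervals from limma and genes ordered by role; filled points have an adjusted p under 0.05. Only Slc2a1 and Adm are filled in either panel, and the other 34 lie between -0.41 (Mxi1) and 0.84 (Ddit4).

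None of the glycolytic enzymes passed the test, and their values lay on both sides of the control. Of 17 listed, 15 were measured, with 9 above and 6 below 0 in both comparisons with the control. Over all tested rows, 52.3% lay above 0 with FOXP2 and 50.3% with FOXP2-CPED1. The median log2 fold change of the 15 enzymes was 0.06 with FOXP2 and 0.04 with FOXP2-CPED1. They were among the most abundant transcripts of the list: in the control, Pkm, which makes pyruvate, stood at 1195 ± 52.1 RPKM and the aldolase Aldoa at 707 ± 25.9 RPKM. Next came Ldha, Pgk1, Pgam1 and Gapdh, whose control means from 518 to 475 RPKM lay closer together than the SD of Gapdh (118). At the other end were Ldhb (21.6 ± 3.03 RPKM) and Hk2 (15.1 ± 0.231 RPKM). The summed level of the 15 enzymes was 5314 RPKM in the parental and 4912 in the vector library. FOXP2 clones 1 to 4 reached 4479, 6959, 5502 and 5659 RPKM, and FOXP2-CPED1 clones 1 to 4 reached 5773, 5162, 5011 and 7491 RPKM. Thus 1 FOXP2 clone lay below both controls and 3 above, and with FOXP2-CPED1 clones 1 and 4 lay above both.

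Pgk1, phosphoglycerate kinase, was higher in all 8 clones than in both controls. The parental and vector values were 505 and 487 RPKM, beside 518, 1039, 827 and 681 in FOXP2 clones 1 to 4 and 746, 599, 594 and 1173 in FOXP2-CPED1 clones 1 to 4. The spread between clones was wide, and the log2 fold changes of 0.58 ± 0.31 (SE) with FOXP2 and 0.59 ± 0.31 with FOXP2-CPED1 did not pass (limma, adjusted p = 0.693 and 0.744). Without FOXP2-CPED1 clone 4 the latter was 0.37. Pfkl, the liver-type phosphofructokinase that is also found in fibroblasts, was 39.8 and 36.5 RPKM in parental and vector cells. Its values were 34.2, 36.8, 75.4 and 56.1 RPKM in FOXP2 clones 1 to 4 and 67.7, 49.8, 55.1 and 57.8 RPKM in FOXP2-CPED1 clones 1 to 4. All FOXP2-CPED1 clones lay above both controls, with a log2 fold change of 0.57 ± 0.28 (SE) that did not pass (limma, adjusted p = 0.723).

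Pfkm, the muscle-type phosphofructokinase, showed small and even differences. It stood at 47.3 and 42.2 RPKM in the controls, at 37.7, 34.0, 38.3 and 38.5 in FOXP2 clones 1 to 4, and at 39.3, 36.6, 41.2 and 39.6 in FOXP2-CPED1 clones 1 to 4. Every clone lay below both controls, with log2 differences of -0.26 and -0.19 that did not pass (limma, adjusted p = 0.605 and 0.823). Hk1, the ubiquitous hexokinase, likewise lay below both controls in all 8 clones, at 59.1 to 66.1 RPKM against 68.2 and 69.1. Hk2, the inducible hexokinase, was 15.3 and 15 RPKM in the controls, 12.4, 18.9, 18.2 and 32.3 in FOXP2 clones 1 to 4, and 10.5, 16.4, 12.9 and 18.0 in FOXP2-CPED1 clones 1 to 4. Both constructs had clones on either side of the control. The other 10 enzymes, from the isomerase Gpi1 and the platelet-type phosphofructokinase Pfkp to the enolase Eno1 and the lactate dehydrogenases Ldha and Ldhb, had log2 fold changes from -0.16 (Pfkp with FOXP2-CPED1) to 0.38 (Gapdh with FOXP2), with adjusted p from 0.794 to 1.00 (limma). Gapdh also differed most between the controls, with 559 RPKM in the parental and 392 in the vector library.

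**Figure D3:**
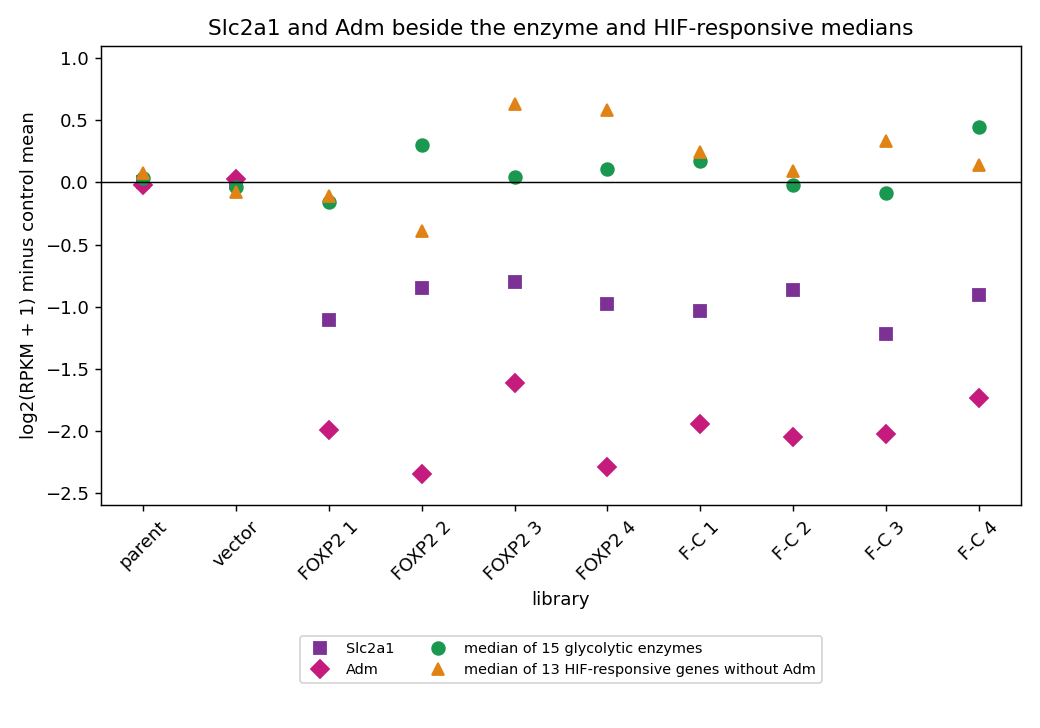
Difference of each library from the control mean on the log2(RPKM + 1) scale for Slc2a1 and Adm, the median of 15 glycolytic enzymes and the median of 13 HIF-responsive genes without Adm; F-C is FOXP2-CPED1. Over the 8 clones Slc2a1 runs from -1.22 to -0.80 and Adm from -2.35 to -1.62, while the enzyme median runs from -0.16 to 0.44 and the HIF-responsive median from -0.39 to 0.63.

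Set side by side in each clone, Slc2a1 and Adm lay below both medians of the other genes in all 8 clones. The contrast was proposed with the fall of both genes known, so this order is only a description. In FOXP2-CPED1 clone 4, where the enzyme median was highest at 0.44 above the control on the log2 scale, Slc2a1 was at -0.90 and Adm at -1.73. In FOXP2 clone 1, where the enzyme median was lowest at -0.16, Slc2a1 was at -1.11 and Adm at -2.0. In FOXP2 clone 3, which had the highest HIF-responsive median (0.63), Adm was at -1.62. The lowest HIF-responsive median (-0.39) and the lowest Adm value (-2.35) were both in FOXP2 clone 2.

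Slc16a1, which encodes the lactate and pyruvate transporter MCT1, was the only lactate exporter measured. The parental and vector cells had 9.20 and 9.06 RPKM, FOXP2 clones 1 to 4 had 11.2, 21.7, 13.7 and 21.0, and FOXP2-CPED1 clones 1 to 4 had 9.57, 13.5, 9.06 and 18.1. All FOXP2 clones were above both controls, while FOXP2-CPED1 clone 3 was level with the vector cells. The log2 fold change was 0.77 ± 0.31 (SE) with FOXP2 and 0.37 ± 0.31 with FOXP2-CPED1, and neither passed (limma, adjusted p = 0.510 and 0.872). Without the 3 libraries with mitochondrial rows at 0, the log2 fold change with FOXP2 was 0.41, and the difference of FOXP2-CPED1 from FOXP2 turned from -0.40 to 0.09. With library quality weights the value with FOXP2 was 0.37.

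Of the 4 genes that regulate flux, none passed the test. Pdk1 encodes a kinase that switches off pyruvate dehydrogenase and so keeps pyruvate from the mitochondria. Its level was 12.5 and 11.9 RPKM in the controls, 14.0, 5.5, 24.0 and 18.0 in FOXP2 clones 1 to 4, and 19.2, 16.8, 19.9 and 12.5 in FOXP2-CPED1 clones 1 to 4. FOXP2 clone 2 was below and FOXP2 clone 3 well above both controls. Pfkfb4, which makes and breaks down an activator of phosphofructokinase, stood at 7.36 and 6.29 RPKM in the controls. It was 5.67, 3.79, 7.19 and 5.99 RPKM in FOXP2 clones 1 to 4 and 7.46, 7.93, 7.13 and 5.88 RPKM in FOXP2-CPED1 clones 1 to 4, again with FOXP2 clone 2 lowest. Pfkfb3, of the same family, lay between 2.81 and 6.45 RPKM in the clones against 4.47 and 5.25 in the controls. Pdk3, another pyruvate dehydrogenase kinase, lay between 11.4 and 15.9 RPKM against 13.3 and 13.

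Hif1a itself was 59.4 and 66.2 RPKM in the parental and vector libraries and ran from 38.1 (FOXP2 clone 2) to 66.5 RPKM (FOXP2 clone 4) among the clones. Its log2 fold changes of -0.27 with FOXP2 and -0.20 with FOXP2-CPED1 did not pass (limma, adjusted p = 0.782 and 0.888). The HIF protein is controlled largely by its stability, which these RNA values do not measure.

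Among 14 HIF-responsive genes, Adm fell with both constructs and the other 13 did not pass. Of those 13, 11 had a log2 fold change above 0 with FOXP2 and 10 with FOXP2-CPED1, where 52.3% and 50.3% of all tested rows did. The median of the 13 was 0.21 and 0.16, beside 0.0162 and 0.00161 over all rows. The 13 genes share the controls and varied together between clones, as described below, so these counts are not independent. Ankrd37, an ankyrin repeat gene known to respond to HIF, was low and was higher in every clone. It stood at 0.792 and 1.04 RPKM in the controls, at 1.88, 1.14, 3.37 and 2.13 in FOXP2 clones 1 to 4, and at 1.24, 1.89, 2.06 and 1.11 in FOXP2-CPED1 clones 1 to 4. Its log2 fold change, understated at such low levels, was 0.67 ± 0.28 (SE) with FOXP2 and 0.41 ± 0.28 with FOXP2-CPED1 (limma, adjusted p = 0.548 and 0.837). With a pseudocount of 0.1 in place of 1 the value with FOXP2 was 1.05. Vegfa, the vascular growth factor gene, also lay above both controls (62.1 and 62.0 RPKM) in every clone, from 64.5 RPKM in FOXP2 clone 2 to 130 in FOXP2 clone 3, with log2 fold changes of 0.50 and 0.39 that did not pass (limma, adjusted p = 0.704 and 0.848).

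P4ha1, the catalytic subunit of a collagen prolyl hydroxylase, was 56.9 and 51.3 RPKM in the controls. It was 56.5, 54.3, 77.6 and 81.4 RPKM in FOXP2 clones 1 to 4 and 76.5, 73.8, 68.5 and 67.0 RPKM in FOXP2-CPED1 clones 1 to 4. FOXP2 clones 1 and 2 lay within the range of the controls and the other 6 clones above it. Its log2 fold change with FOXP2-CPED1 was 0.39 ± 0.18 (SE) and did not pass (limma, adjusted p = 0.696). Mxi1, a MYC antagonist, lay lower. It stood at 15.2 and 13.4 RPKM in the controls, 12.8, 9.27, 16.6 and 14.1 in FOXP2 clones 1 to 4, and 10.8, 12.8, 11.2 and 7.80 in FOXP2-CPED1 clones 1 to 4. All FOXP2-CPED1 clones lay below both controls, with a log2 difference of -0.41 ± 0.23 (SE) that did not pass (limma, adjusted p = 0.767).

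The spread between clones was widest for Ddit4, Bnip3, Ndrg1 and Pdk1. Ddit4, which encodes REDD1, an inhibitor of mTORC1, stood at 35.5 and 35.3 RPKM in the controls. It was 102, 18.5, 61.5 and 99.8 RPKM in FOXP2 clones 1 to 4 and 69.0, 81.4, 61.1 and 49.4 RPKM in FOXP2-CPED1 clones 1 to 4. FOXP2 clone 2 lay below both controls and the other 7 clones above. Bnip3, a mitophagy receptor gene, was 51.1 and 43.5 RPKM in the controls, 45.7, 25.1, 111 and 93.6 in FOXP2 clones 1 to 4, and 64.9, 50.4, 65.2 and 36.3 in FOXP2-CPED1 clones 1 to 4. Its clones lay on both sides of the control.

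Ndrg1, the N-myc downstream regulated gene, was 60.2 and 58.1 RPKM in the controls. It was 48.0, 44.8, 49.1 and 146 RPKM in FOXP2 clones 1 to 4 and 37.0, 56.6, 53.8 and 76.8 RPKM in FOXP2-CPED1 clones 1 to 4, so that only clone 4 of each construct lay above the control. Egln3, an oxygen-sensing prolyl hydroxylase gene, stood at 2.40 and 1.98 RPKM in the controls, 1.88, 2.73, 4.99 and 5.11 in FOXP2 clones 1 to 4, and 2.49, 1.93, 1.95 and 2.46 in FOXP2-CPED1 clones 1 to 4. The highest values were those of FOXP2 clones 3 and 4. The remaining 5 genes were Bnip3l (mitophagy receptor), Egln1 (oxygen sensor), Car9 (carbonic anhydrase), P4ha2 (collagen hydroxylase) and Kdm3a (histone demethylase). Their log2 fold changes lay between -0.15 and 0.40, with adjusted p from 0.848 to 0.997 (limma).

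**Figure D4:**
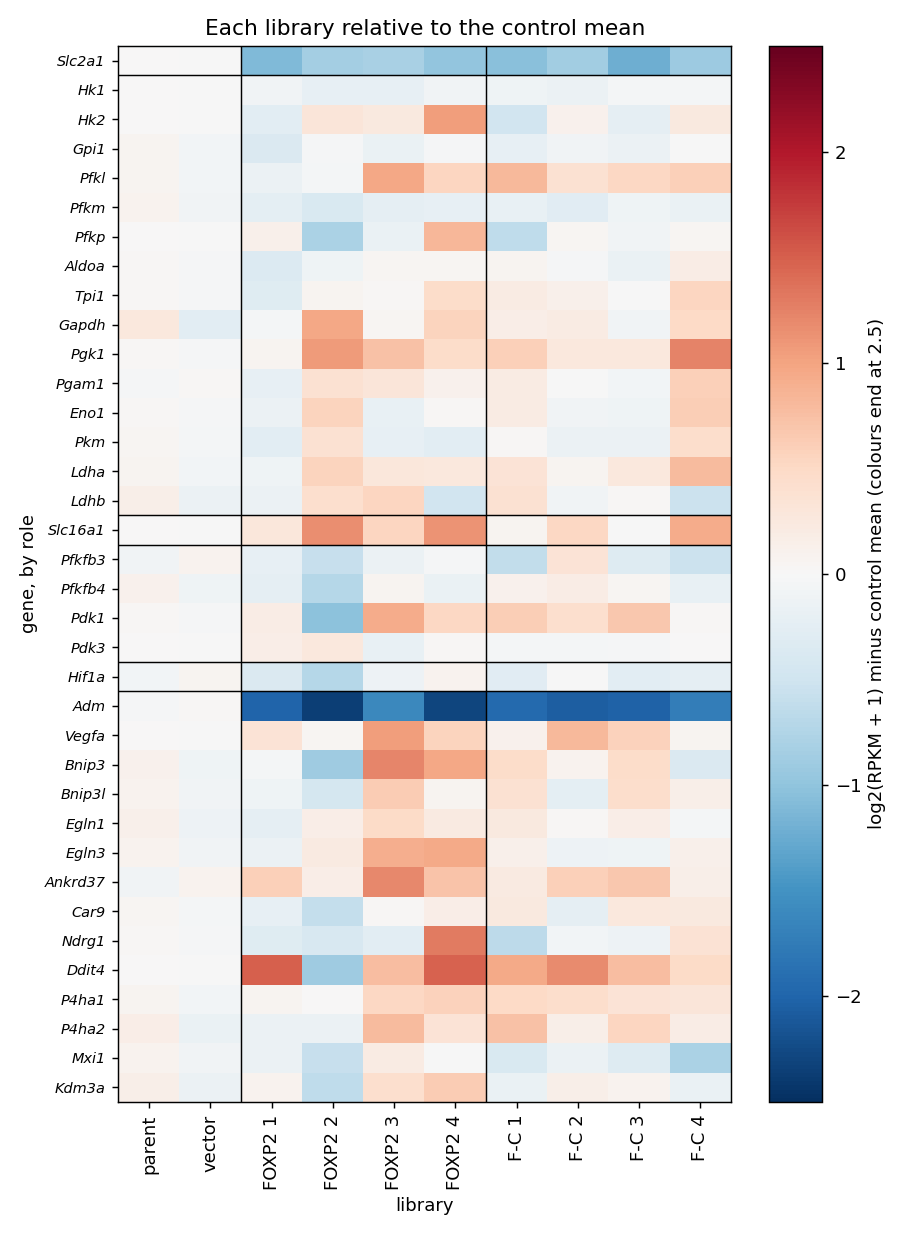
Difference from the control mean (log2(RPKM + 1) scale, colours end at 2.5) of each of 36 members in each of 10 libraries, with genes ordered by role; F-C is FOXP2-CPED1. Slc2a1 and Adm are blue in every clone, Hk1, Pfkm and Gpi1 faintly so, and Pgk1, Vegfa and Ankrd37 are red in every clone, while Ddit4 changes colour between FOXP2 clone 1 (102 RPKM) and FOXP2 clone 2 (18.5 RPKM).

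Members whose clones did not overlap the control were counted beside the same share of all rows. With FOXP2, 4 members were above the control (Vegfa, Slc16a1, Ankrd37 and Pgk1), or 11.1% against 9.13% of all rows, and 4 were below (Hk1, Pfkm, Slc2a1 and Adm), or 11.1% against 10.4%. With FOXP2-CPED1, 6 were above (P4ha1, Ddit4, Pfkl, Vegfa, Ankrd37 and Pgk1), or 16.7% against 12.2%, and 5 below (Hk1, Pfkm, Mxi1, Slc2a1 and Adm), or 13.9% against 13.3%. Over all 8 clones, 3 were above (Vegfa, Ankrd37 and Pgk1), or 8.33% against 5.44%, and 4 below (Hk1, Pfkm, Slc2a1 and Adm), or 11.1% against 6.38%.

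No member passed the test between the constructs. Of the 36, 0 passed between FOXP2-CPED1 and FOXP2 by limma and 0 had an unadjusted p under 0.05, where over all rows 0 passed (0%) and 278 (2.16%) had an unadjusted p under 0.05. The groups of clones overlapped for every member, where 0.576% of all rows were higher and 0.802% lower without overlap. For Slc2a1 the difference of FOXP2-CPED1 from FOXP2 was -0.07 on the log2 scale with a 95% interval from -0.34 to 0.19 (limma, adjusted p = 0.9998). For Adm it was 0.13, from -0.24 to 0.50. Two-sided exact permutation tests gave p = 0.514 for Slc2a1 and 0.600 for Adm, where 0.0286 is the smallest possible. The smallest unadjusted p values belonged to Egln3 (-0.48, interval -1.02 to 0.06), Pfkfb4 (0.30, interval -0.09 to 0.69), Hk2 (-0.42, interval -1.0 to 0.16), Slc16a1 (-0.40, interval -0.97 to 0.17) and Mxi1 (-0.28, interval -0.70 to 0.15), each with adjusted p = 0.9998. Without the 3 libraries with mitochondrial rows at 0, the differences were -0.04 for Hk2, 0.12 for Pfkfb4 and -0.47 for Mxi1, and with library quality weights they were -0.02 for Egln3, -0.05 for Hk2 and -0.18 for Slc16a1. Without FOXP2 clone 4 the value for Hk2 was -0.18, and without FOXP2 clone 2 those for Pfkfb4 and Mxi1 were 0.15 and -0.42. Mxi1 was at -0.17 without FOXP2 clone 3 and at -0.15 without FOXP2-CPED1 clone 4.

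Clones of the same construct differed more in some members than in others. After removal of the construct means, the SD of log2(RPKM + 1) over the 8 clones was 0.82 for Ddit4, 0.74 for Bnip3, 0.64 for Ndrg1 and 0.63 for Pdk1. It was 0.06 for Hk1, 0.08 for Pfkm, 0.15 for Slc2a1 and 0.26 for Adm. Among the clones, FOXP2-CPED1 clone 4 held the highest value of 9 of 15 enzymes (Hk1, Gpi1, Aldoa, Tpi1, Pgk1, Pgam1, Eno1, Pkm and Ldha), and FOXP2 clone 1 the lowest of 8. Among the 13 HIF-responsive genes, FOXP2 clone 3 held the highest value of 7 and FOXP2 clone 4 of another 4, while FOXP2 clone 2 held the lowest of 8. FOXP2 clone 2 was thus low in HIF-responsive genes while its enzyme sum was the second highest.

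**Figure D5:**
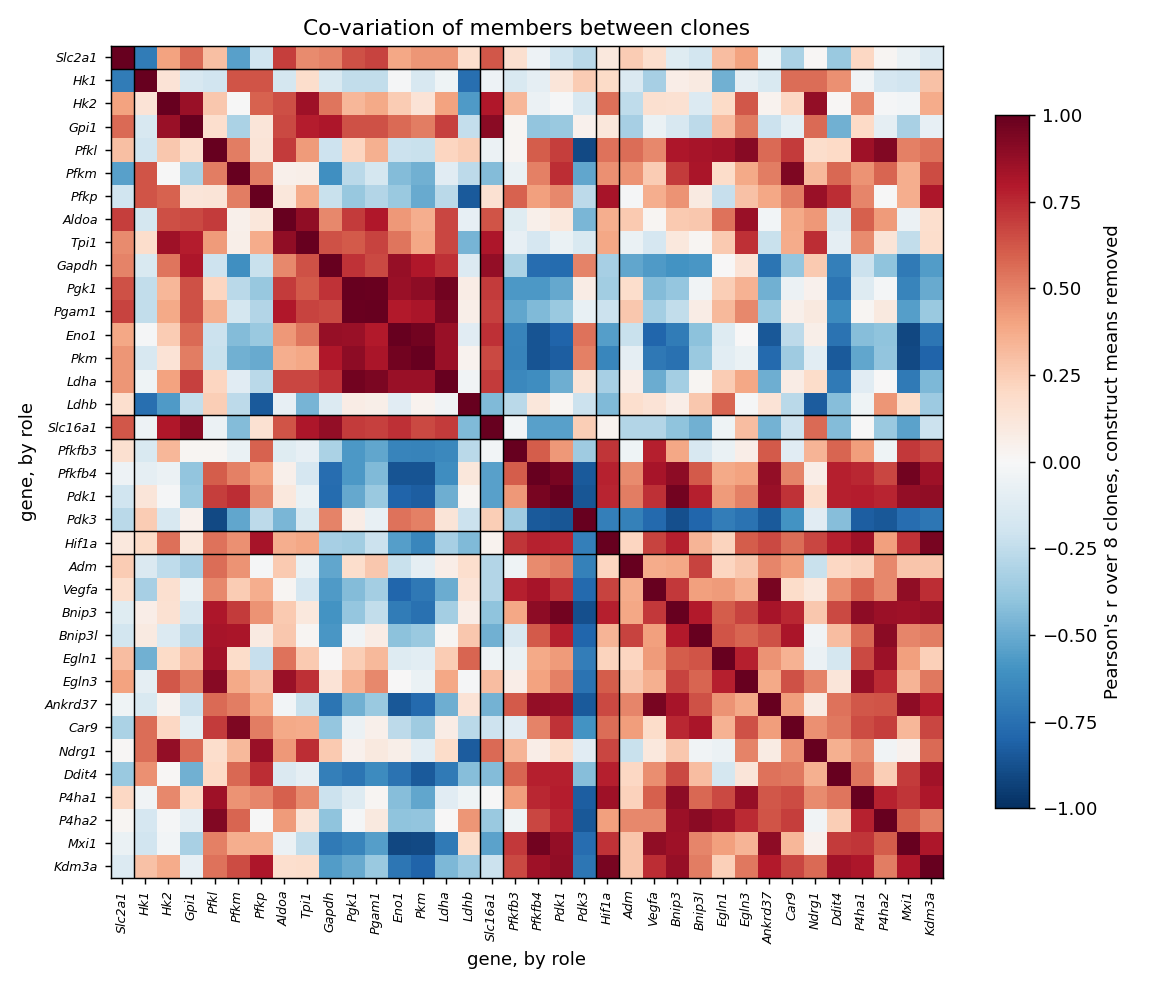
Pearson's r of each pair of 36 members over the 8 clones, computed on log2(RPKM + 1) after the construct means were removed, with genes ordered by role (red positive, blue negative). Lower-glycolysis genes such as Pgk1 and Pgam1 (0.99) form a red block, HIF-responsive genes such as Vegfa and Ankrd37 (0.95) form another, and Pdk3 is blue against most of the second block.

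How members moved together from clone to clone is given as a description, over 8 clones in which all genes share a library's depth and scaling. The median r was 0.59 over 78 pairs of HIF-responsive genes without Adm, 0.27 over 105 pairs of enzymes and 0.02 over 195 pairs of an enzyme with a HIF-responsive gene, beside 0.0012 over all pairs of tested rows. Without FOXP2 clone 2 the first fell to 0.44 and the second was 0.45. Without FOXP2 clone 1 the first was 0.66 and the second fell to 0.22. The third ran from -0.14 to 0.12 when a single clone was left out. The highest values among enzymes were for Pgk1 with Pgam1 (0.99), Eno1 with Pkm (0.97) and Pgk1 with Ldha (0.96). Across roles, Bnip3 followed Pdk1 (0.96), Pfkfb4 followed Mxi1 (0.96) and Hif1a followed Kdm3a (0.95). Eno1 ran against Mxi1, at -0.91 over 8 clones and -0.84 without FOXP2 clone 2. Slc2a1 had a median r of 0.44 with the enzymes and -0.05 with the HIF-responsive genes, and Adm had -0.01 and 0.28 in the same order. Single pairs with an enzyme ran from -0.70 to 0.69 for Slc2a1 and from -0.52 to 0.56 for Adm. Between Slc2a1 and Adm r was 0.25.

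None of the other pathway genes, in 6 lists, passed the test in any of the comparisons by limma. Of the HIF machinery, 10 of 12 genes were tested, and the smallest p was that of Cul2, a scaffold of the ubiquitin ligase that degrades HIF, at 16.0 ± 0.717 RPKM in the controls, 20.2 ± 1.81 in FOXP2 clones and 22.3 ± 1.05 in FOXP2-CPED1 clones (adjusted p = 0.503 and 0.308). Of other glucose transporters, hexokinases and tissue isoforms, 9 of 23 were tested, led by the transporter genes Slc2a8 with FOXP2 (8.13 ± 0.524 RPKM in the control and 5.69 ± 1.98 with FOXP2, adjusted p = 0.684) and Slc2a3 with FOXP2-CPED1 (3.15 ± 0.512 and 1.00 ± 1.07 RPKM, adjusted p = 0.729). In the pentose phosphate pathway, 6 of 7 were tested, and Pgd, its second dehydrogenase, stood at 187.3 ± 2.65, 125.5 ± 21.5 and 138.6 ± 11.5 RPKM in the same order of groups (adjusted p = 0.251 and 0.549). For pyruvate dehydrogenase and its regulators, 11 of 11 were tested, led by the phosphatase gene Pdp2 (limma, adjusted p = 0.305 and 0.454). For glycogen and gluconeogenesis, with 13 genes listed, 10 rows were tested, led by the pyruvate carboxylase gene Pcx (limma, adjusted p = 0.539 and 0.406). These 10 rows include Khsrp, which is not a listed gene and was matched through a synonym. At an unadjusted p under 0.05 these lists held 1, 0, 2, 1 and 1 genes with FOXP2, where 8.52% of all rows did, and 1, 0, 1, 1 and 1 with FOXP2-CPED1, where 7.28% did.

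Of 23 further HIF-responsive genes, 21 were tested, and 5 with FOXP2 (8.52% of all rows) and 7 with FOXP2-CPED1 (7.28% of all rows) had an unadjusted p under 0.05. The smallest p was that of Cited2, which encodes a protein that limits HIF activity by binding its coactivators. It stood at 191.2 ± 20.9 RPKM in the controls, 101.0 ± 22.1 in FOXP2 clones and 92.1 ± 10.4 in FOXP2-CPED1 clones. The log2 differences of -0.93 and -1.05 did not pass (adjusted p = 0.112 and 0.0774), nor did the difference over all clones (adjusted p = 0.0507).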

How the data were processed

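Per the labels' protocols, Trizol RNA of 10 NIH3T3 cultures went through the NEBNext Ultra RNA kit. The authors deposited RPKM values of all libraries in 1 table, per the file headers. HISAT2, StringTie and mm9 are named in the submitters' processing notes. The sources used here do not give versions, annotation, strand or filters. Reads shared with pseudogenes or overlapping genes could move a value, as for Gapdh, which has many processed copies.

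Values were transformed as log2(RPKM + 1), since RPKM are not counts. Of 18430 rows, 3581 name no gene (3.37 to 4.54% of summed RPKM) and were left out, and 12842 rows reached 1 RPKM in at least 2 libraries. All 10 libraries entered a model of 3 arms in limma 3.58.1 (R 4.3.3), with a trend, checked on simulated data. Fold changes on this scale understate low genes. Absolute depth is unknown, so no counting interval was computed. P-values reflect only the spread among these 10 cultures. Same-numbered clones of the 2 constructs were not treated as paired, since the labels state no pairing. Members and lists were chosen with earlier results of these data known. Genes given in full were those past the threshold, the 5 smallest p in each comparison and the 4 with the largest SD of log2(RPKM + 1) between clones. Promoters come from RefSeq on GRCm38.p6, a later build than the table's mm9, matched by symbol. Alternatives were other pseudocounts, filters, scalings and weights, only the arms compared, a replicate block and libraries left out. Testing only the highest-mean row of each symbol, and leaving clones out of the correlations, were added after seeing the data.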

Additional observations from a re-analysis of the deposited data

Results flagged for a closer look

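Within groups of 4 clones, 3 of 72 checks found a clone whose gap to its nearest neighbour exceeded Dixon's 95% critical share of the group's range, where chance gives about 1 in 20. Pkm, pyruvate kinase, stood at 1555 RPKM in FOXP2 clone 2, against 994 to 1032 in the other FOXP2 clones. Ndrg1 stood at 146 RPKM in FOXP2 clone 4, against 44.8 to 49.1 in the others. Car9, a carbonic anhydrase, stood at 0.476 RPKM in FOXP2-CPED1 clone 2, against 1.05 to 1.07 in the others of that construct.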

How the results depend on the processing

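The members past the threshold numbered 2 against the control for each construct and for all clones. With library quality weights they numbered 6 with FOXP2 (adding Ankrd37, Ddit4, Gpi1 and Pfkm) and 4 over all clones (adding Ankrd37 and Ddit4); FOXP2 clone 1 then had a weight of 6.62 and FOXP2 clone 2 of 0.196, and the call counts over all rows rose from 56 to 2095 with FOXP2, from 45 to 929 with FOXP2-CPED1 and from 69 to 1842 over all clones. With only the arms compared there were 0 with FOXP2. Without the 3 libraries with mitochondrial rows at 0 there was 1 (Adm) for each construct. Leaving out 1 library at a time gave 0 to 2 for each construct and 0 to 2 over all clones, with 0 only without the parental or the vector library. In those fits the lone control is assumed to vary like the other arms, and over all rows as few as 2 (FOXP2), 0 (FOXP2-CPED1) and 2 (all clones) were called. Slc2a1 passed in 14 of 21 alternatives with FOXP2 (adjusted p up to 0.405), 15 of 21 with FOXP2-CPED1 (up to 0.358) and 18 of 20 over all clones (up to 0.303), and Adm in 18 of 21 (up to 0.0655), 19 of 21 (up to 0.134) and 18 of 20 (up to 0.0645); both were lower in each of them, with log2 fold changes from -1.08 to -0.88 and from -2.22 to -1.81. The median of all members lay from -0.11 to 0.16 with FOXP2 and from -0.02 to 0.15 with FOXP2-CPED1. Both medians thus changed sign in some alternatives, from 0.08 and 0.07 under the main settings. For Slc16a1 the difference of FOXP2-CPED1 from FOXP2 was 0.0931 without the 3 libraries. That was the only reversed sign among the fold changes followed for the 5 members with the smallest p in each comparison. The cause of these changes was not tested. The deviations of same-numbered clones correlated at -0.0357, -0.24, 0.281 and 0.166, and only clone 4 correlated best with its own number. The labels state no pairing, and these values do not show one, though they cannot exclude it. With the replicate block 0 members passed between the constructs and the median of the members stayed at 0.0318.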

Other observations

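The order of 2 phosphofructokinase isoforms differed between the controls and most clones, a comparison chosen after the values were seen and not tested. Pfkm, the muscle type, stood above Pfkl, the liver type, in both controls, where the ratio of Pfkl to Pfkm in RPKM was 0.842 (parental) and 0.865 (vector). In 7 of 8 clones Pfkl stood above Pfkm. The ratio was 0.906, 1.08, 1.97 and 1.46 in FOXP2 clones 1 to 4, and 1.72, 1.36, 1.34 and 1.46 in FOXP2-CPED1 clones 1 to 4. Neither gene passed the limma test in any comparison with the control under the main settings.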
